A study of Mus musculus with 16 samples.

Results

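The genes described here are 9 members of the PI3K, AKT and mTOR pathway, taken by symbol from the gene-level read counts of sorted haematopoietic stem cells (HSCs): the PI3K subunits Pik3cd and Pik3r1, the AKT kinases Akt1 and Akt2, the regulators Tsc1, Tsc2 and Rheb, and the kinase Mtor with its partner Rptor. They are 9 of the 46078 genes in the table. All 9 had reads in each of the 15 libraries used, and all 9 passed the filter on low counts in every comparison.

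Lin- Sca1+ cKit+ (LSK) CD48- CD150+ cells, a population enriched in long-term HSCs, were sorted in pools of 30 viable cells from C57/Bl6 mice that received no treatment. The cells came from the bone fraction (endosteal HSCs) or the marrow fraction (central HSCs) of tibia, femur and humerus. The mice were either WT or Gfra2-/-, labelled Gfra2 WT and Gfra2 KO, and ages were not given in the labels. The study asked whether the loss of GFRα2, a receptor for neurotrophic factors of the GDNF family, altered gene expression in HSCs of both BM locations.

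There were 4 libraries each of WT endosteal, WT central and Gfra2-/- endosteal HSCs and 3 of Gfra2-/- central HSCs, lettered A to D within a group only to tell them apart. The 30 cells of a library share a source. The study describes its libraries as biological replicates, while the labels tie none to an animal, so p-values measure the spread between libraries. Reads on genes ranged from 4416648 to 14003634 in WT endosteal, from 826487 to 3367289 in WT central, from 8519094 to 18550008 in Gfra2-/- endosteal and from 7649803 to 14716308 in Gfra2-/- central libraries. WT central libraries were thus shallower than all others. Genotype and depth therefore move together in central HSCs, as compartment and depth do in WT HSCs. Gfra2 itself had 0 to 4 reads in each WT library, too few to separate the genotypes, whereas 2 endosteal libraries labelled Gfra2-/- had 47 (B) and 9 (D) reads. Counts per gene do not show which exons these reads cover, so whether they go against the label cannot be told. The text therefore speaks of libraries labelled Gfra2-/-. Kit, the gene of a receptor used for sorting, lay between 490.7 and 992.6 CPM (reads scaled by the size of the library) in the 15 libraries, and Cd48, whose product was used to gate cells out, between 0 and 17.4 CPM. Ly6a, the gene of Sca1, lay between 105.9 and 533.2 CPM, and Slamf1, the gene of CD150, between 6.34 and 134.3 CPM. The lowest Slamf1 values were thus below the highest Cd48 value.

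PI3K is a lipid kinase that growth factor and cytokine receptors switch on. Its product recruits AKT kinases to the membrane, where they are activated, and AKT inhibits the complex of TSC1 and TSC2, which keeps the small GTPase RHEB inactive. Active RHEB turns on mTOR complex 1, a kinase complex that promotes protein synthesis and cell growth, and in HSCs low activity of this pathway is associated with quiescence.

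Of the 9 genes, Tsc2 was the only one to pass the test in any of 7 comparisons. Tsc2 encodes tuberin, the GTPase-activating protein through which the TSC complex switches off RHEB. The gene lies on the minus strand of chromosome 17 in the mouse build GRCm38 (chr17:24595816-24632630), with 40 merged exons and 9620 exonic bases in the GENCODE M21 annotation. Its RefSeq promoter window is shown because Tsc2 was the gene that differed. The window (GRCm38.p6, chr17:24632578-24632877, minus strand) runs from 250 bases before the start to 50 bases after it and is written 5′ to 3′, with the ETS motif CCGGAAGT in capitals.

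Tsc2: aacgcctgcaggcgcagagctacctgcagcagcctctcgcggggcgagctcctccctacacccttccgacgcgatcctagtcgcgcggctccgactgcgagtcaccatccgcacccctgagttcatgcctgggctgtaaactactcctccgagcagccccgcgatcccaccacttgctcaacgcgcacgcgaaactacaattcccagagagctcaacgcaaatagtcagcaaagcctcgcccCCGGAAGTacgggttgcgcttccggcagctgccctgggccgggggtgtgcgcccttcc

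The motif begins at base 243 of the window, counted from its 5′ end. Windows holding this motif on either strand made up 3.89% of all 32851 mouse promoter windows (1277 of them). The window held neither the E-box CACGTG, found in 7.15% of windows, nor the GC box GGGCGG, found in 35.7%, when both strands were searched. The window shares 154 bases with that of Nthl1, a DNA repair gene read from the opposite strand. A match of letters describes the sequence and is not evidence of binding.

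Tsc2 was measured at 43.4, 49.4, 24.8 and 72.2 CPM in the WT endosteal libraries A to D, and at 24.4, 28.3, 25.5 and 28.99 CPM in the WT central ones. In libraries labelled Gfra2-/-, the values were 41.1, 217.1, 158.9 and 78.2 CPM in endosteal and 126.5, 82.3 and 149.2 CPM in central HSCs. The 3 central Gfra2-/- libraries were all above the 4 central WT libraries. In endosteal HSCs the groups overlapped, since the Gfra2-/- library A lay below 3 of the WT libraries and the other Gfra2-/- libraries lay above all 4. Group means were 47.5 ± 19.5 CPM (SD, n = 4) in WT endosteal, 26.8 ± 2.19 (n = 4) in WT central, 124 ± 79.3 (n = 4) in Gfra2-/- endosteal and 119 ± 34.0 (n = 3) in Gfra2-/- central HSCs. The WT central values rest on 27, 91, 19 and 86 reads.

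Averaged over both compartments, Tsc2 was 3.40-fold higher in libraries labelled Gfra2-/- than in WT libraries (log2 fold change 1.77, SE 0.37, 95% confidence interval 0.98 to 2.55; edgeR quasi-likelihood test, FDR = 0.0628). This made 1 of 9 genes past the FDR threshold of 0.1, against 0.824% of the 15416 genes tested in either direction and 0.324% called higher. In central HSCs alone, the log2 fold change was 2.13 (SE 0.57, edgeR FDR = 0.318). In endosteal HSCs it was 1.39 (SE 0.55, edgeR FDR = 0.738). Neither passed the threshold on its own, and the difference between the genotype effects of the compartments, -0.77 (SE 0.73, edgeR FDR = 0.876), did not pass it either. Tsc2 was the 1 of 9 genes whose groups did not overlap in the central comparison, where 12.3% of all tested genes did not overlap.

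The size of the Tsc2 difference moved little with the choice of libraries, but its call did not hold in all of them. With each library left out in turn, the log2 fold change stayed between 1.56 and 1.91, and the edgeR FDR rose to 0.127 without WT endosteal library A, 0.114 and 0.106 without Gfra2-/- endosteal libraries B and C, and 0.178, 0.108 and 0.145 without Gfra2-/- central libraries A, B and C. Without both endosteal libraries labelled Gfra2-/- that had over 3 Gfra2 reads, the log2 fold change was 1.63 (edgeR FDR = 0.232). When only the 13 libraries past the study's cut-offs were kept, with its cut-off on genes taken here at 10 counts, it was 1.73 (edgeR FDR = 0.173). After all libraries were thinned to equal depth, it was 1.77 (edgeR FDR = 0.0401). With spike-in size factors it was 2.12 (edgeR FDR = 0.311), while the median of all genes was 0.80, which left Tsc2 1.32 above that median.

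**Figure D1:**
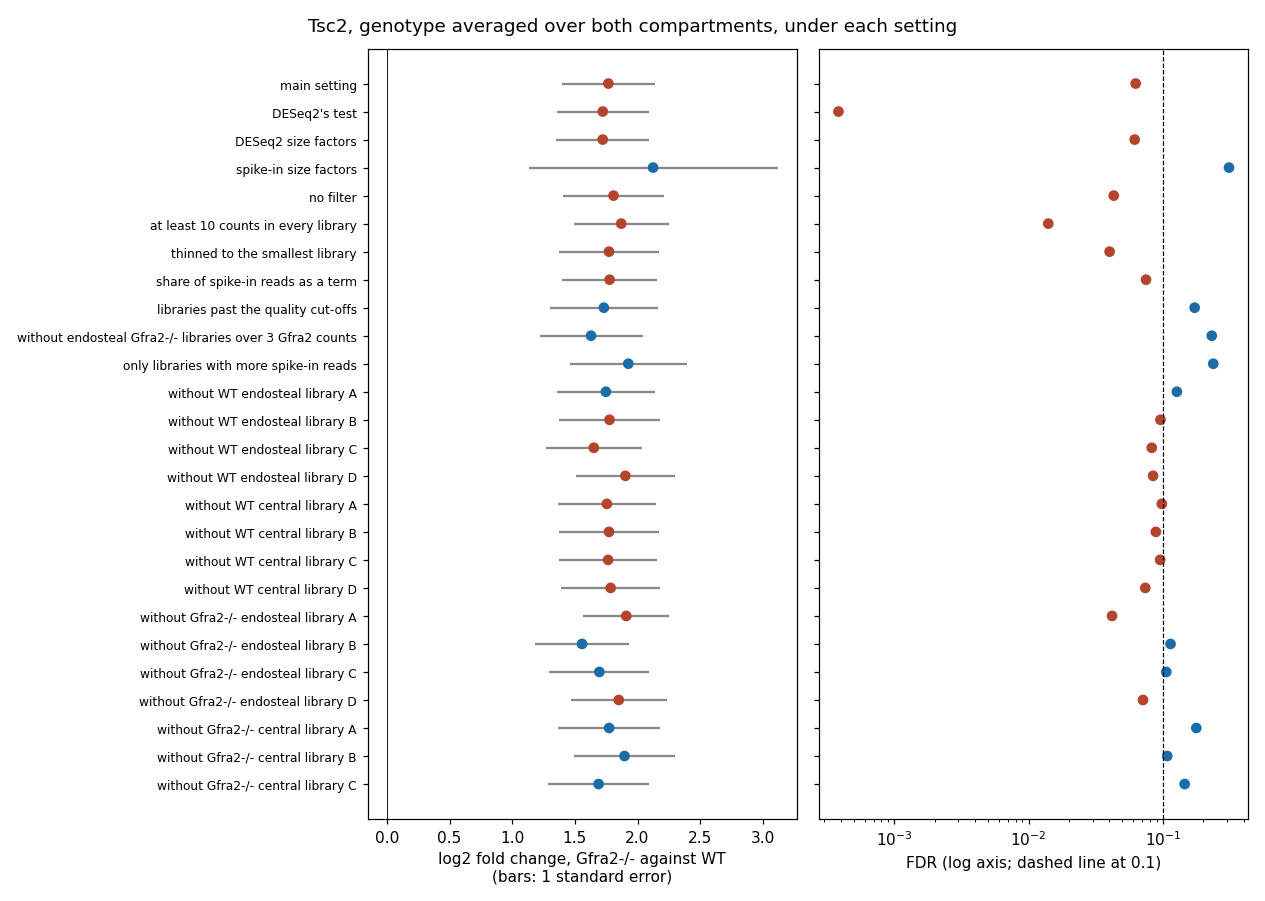
Tsc2 difference between libraries labelled Gfra2-/- and WT, averaged over both compartments, under each processing setting. Left, log2 fold change with 1 standard error; right, FDR on a log axis with the threshold of 0.1 dashed; red points are below the threshold and blue points are not. All log2 fold changes are above 0, from 1.56 to 2.12, whereas the FDR lies on either side of the threshold.

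Reads of spike-in RNA split the libraries into 11 with 0.5% or more of them and 4 with less, 1 in each group. Within the former, the difference of mean log2(CPM + 1) of Tsc2 between genotypes was 1.56 in endosteal HSCs (3 libraries each) and 1.93 in central HSCs (2 against 3). Within the latter, with 1 library per group, it was 0.11 in endosteal and 2.33 in central HSCs. The 3 libraries labelled Gfra2-/- and richer in spike-in had 41.1, 217.1 and 158.9 CPM in endosteal HSCs. A fit on these 11 libraries, added after the data were seen, gave a log2 fold change of 1.93 (edgeR FDR = 0.237).

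Without strand, a read in bases shared by 2 genes cannot be assigned to either, and the counting put such reads in a total of ambiguous reads, which held 5.93 to 17.01% of the mapped reads of a library. The 3′ end of Tsc2 overlaps Pkd1, the polycystin gene on the opposite strand, over 693 bases, or 7.20% of the exonic length of Tsc2. Pkd1, looked up for this overlap and not by the rule for naming genes, had a log2 fold change of 0.87 (SE 0.59, edgeR FDR = 0.525) in the same comparison, and Nthl1 had -0.15 (SE 0.83, edgeR FDR = 0.962).

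Markers of HSCs and of other cell types varied between libraries, also within a group. The list of gate and HSC genes (9 genes) summed to 2082 to 2963 CPM in WT endosteal, 1648 to 2765 in WT central, 2318 to 2847 in Gfra2-/- endosteal and 2792 to 3543 in Gfra2-/- central libraries. The central genotypes did not overlap in this sum, as they did not in Tsc2. The granulocyte and monocyte list (8 genes) summed to 541 to 996, 540 to 2990, 477 to 700 and 568 to 1840 CPM in the same order, and 7, 6, 7 and 8 of its genes had reads in the group. The part of both lists in the Tsc2 difference was not tested. The erythroid list (6 genes) summed to 6.40 to 44.3 CPM in WT endosteal, 0 to 53.2 in WT central, 19.4 to 442 in Gfra2-/- endosteal and 7.18 to 87.2 in Gfra2-/- central libraries, with Klf1 at 0 in all WT central libraries. The B lymphoid list (5 genes) summed to 19.0 to 98.9, 10.6 to 261, 34.0 to 1802 and 43.9 to 350 CPM in the same order, with Vpreb1 at 0 in WT endosteal libraries. The library with both maxima, Gfra2-/- endosteal D, had 78.2 CPM of Tsc2, and without it the log2 fold change of Tsc2 was 1.85 (edgeR FDR = 0.0712). The library highest in Tsc2, Gfra2-/- endosteal B, also had the most Gfra2 reads, the largest share of reads outside genes (37.7%) and the smallest share of mitochondrial reads (3.24%), and the part of these features in its Tsc2 level was not tested. As in any pooled sample, a change in the number of cells expressing a gene and a change in RNA per cell cannot be told apart.

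**Figure D2:**
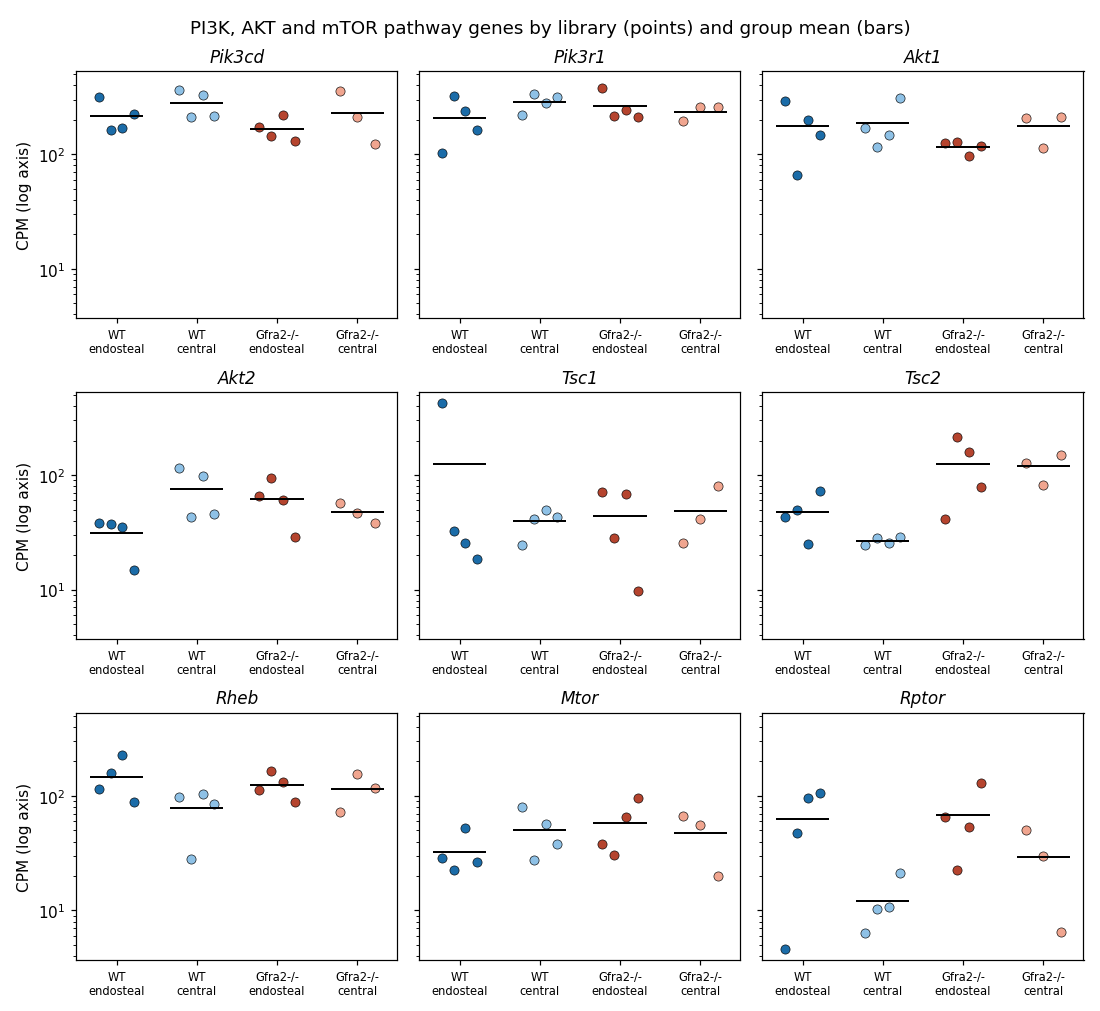
CPM of each of the 9 genes (log axis) in 15 libraries, as points by group, with the group mean as a bar. Tsc2 lies between 24.4 and 72.2 CPM in WT libraries and between 41.1 and 217.1 CPM in those labelled Gfra2-/-; Tsc1 has a single library at 426.2 CPM.

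Tsc1 encodes hamartin, which stabilizes TSC2 in the complex. It was at 426.2 CPM in WT endosteal library A and at 32.7, 25.7 and 18.3 CPM in B to D, a gap that set the first library apart from its group. In WT central libraries Tsc1 ranged from 24.4 to 49.6 CPM, in Gfra2-/- endosteal ones from 9.64 to 70.9 CPM and in Gfra2-/- central ones from 25.4 to 80.5 CPM. All groups overlapped. Between endosteal and central WT HSCs, the log2 fold change of 1.66 (SE 0.92, edgeR FDR = 0.671) became -0.69 when library A was left out. In endosteal HSCs the genotype difference of -1.50 (SE 1.04, edgeR FDR = 0.832) became 0.78 without the same library, so both directions were set by 1 library. In the averaged genotype comparison, where Tsc2 passed, Tsc1 did not (-0.60, SE 0.65, edgeR FDR = 0.731), with a 95% interval of -1.96 to 0.76 that leaves room for differences in either direction.

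Rheb, the GTPase that the TSC complex inhibits, ranged from 87.6 to 227 CPM in WT endosteal and from 27.98 to 103 CPM in WT central libraries, and from 88.6 to 166 CPM in Gfra2-/- endosteal and from 72.5 to 155 CPM in Gfra2-/- central ones. These ranges overlapped in all 4 comparisons of groups. The largest difference was between WT compartments (log2 fold change 0.88, SE 0.51, edgeR FDR = 0.694).

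Rptor encodes raptor, the subunit that brings substrates to mTOR complex 1. It had 4.63, 47.6, 95.2 and 106 CPM in WT endosteal libraries A to D and 6.34, 10.3, 10.7 and 21.2 CPM in WT central ones. The WT central values of Rptor rest on 7, 33, 8 and 63 reads. Endosteal library A was below all 4 central libraries, and the other 3 endosteal libraries were above them. In libraries labelled Gfra2-/-, Rptor had 65.7, 22.6, 53.3 and 129 CPM in endosteal and 50.6, 29.9 and 6.55 CPM in central HSCs, where the ranges overlapped as well. Averaged over the genotypes, the ratio of endosteal to central Rptor was 3.46 (log2 fold change 1.79, SE 0.63), with an edgeR FDR of 0.327 that does not pass, and in this comparison 0 of the 9 genes did, against 0.0519% of all genes. DESeq2 gave an adjusted p of 0.0978 for the same difference and called 468 of the 14095 genes it tested in this comparison. The difference was 2.34 (SE 0.93, edgeR FDR = 0.584) in WT and 1.23 (SE 0.79, edgeR FDR = 0.9995) in Gfra2-/- libraries. Its exons overlap the antisense gene Rptoros over 84 bases, or 0.624% of the exonic length.

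Mtor, the kinase of both mTOR complexes, ranged from 22.4 to 52.9 CPM in WT endosteal, 27.4 to 80.6 in WT central, 30.8 to 95.8 in Gfra2-/- endosteal and 20.2 to 67.0 in Gfra2-/- central libraries. The log2 fold change between genotypes was 0.82 (SE 0.55) in endosteal and -0.12 (SE 0.72) in central HSCs, with edgeR FDRs of 0.827 and 0.982. Neither passed. Between compartments, where Rptor had 1.79, Mtor had -0.18 (SE 0.43, 95% interval -1.07 to 0.72, edgeR FDR = 0.926).

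Akt2, the AKT kinase best known for insulin-driven glucose uptake, was lower in all WT endosteal than in all WT central libraries. The endosteal values were 38.02, 37.7, 35.4 and 14.9 CPM and the central ones 115, 42.9, 97.9 and 45.8 CPM. This was the 1 of 9 genes without overlap between WT compartments, where 6.44% of all genes had none. The log2 fold change was -1.28 (SE 0.64, edgeR FDR = 0.641) and turned to 0.21 with spike-in size factors, under which the median of all genes was 1.58, so that it lay at -1.37 relative to that median. In libraries labelled Gfra2-/- the endosteal values were 66.1, 94.2, 60.1 and 29.1 CPM and the central ones 57.6, 46.5 and 38.5 CPM, and the ranges overlapped. The compartment difference there was 0.39 (SE 0.48, edgeR FDR = 0.9995), and the difference between the genotypes in this effect was 1.65 (SE 0.78, edgeR FDR = 0.712), which does not pass.

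Akt1, the AKT kinase broadly tied to growth and survival, ranged from 65.4 to 290.2 CPM in WT endosteal, 116 to 307 in WT central, 96.5 to 128 in Gfra2-/- endosteal and 114 to 213 in Gfra2-/- central libraries. The 4 Gfra2-/- endosteal libraries lay within a narrow range, inside that of the WT endosteal ones. The genotype difference there was -0.59 (SE 0.41, edgeR FDR = 0.830), and the compartment difference in Gfra2-/- libraries was -0.61 (SE 0.30, edgeR FDR = 0.9995).

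Pik3cd, the catalytic p110δ subunit of leukocytes, and Pik3r1, the regulatory p85α subunit that holds the catalytic subunit at receptors, were the steadiest of the 9 genes. Pik3cd ranged over all libraries from 123 to 360.3 CPM and Pik3r1 from 102 to 379.9 CPM. The SD of log2(CPM + 1) within groups was 0.48 for Pik3cd and 0.46 for Pik3r1, against a median of 1.08 over all genes tested, 1.33 for Tsc1 and 1.36 for Rptor. For Pik3cd, log2 fold changes lay between -0.46 and -0.31 in the 4 comparisons of groups, with SEs of 0.30 to 0.41, and Pik3r1 had values between -0.49 and 0.34 with SEs of 0.29 to 0.37. None passed the test, and the 95% intervals of the mean genotype effect were -0.88 to 0.22 for Pik3cd and -0.48 to 0.55 for Pik3r1. These were the narrowest intervals of the 9 genes in that comparison.

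**Figure D3:**
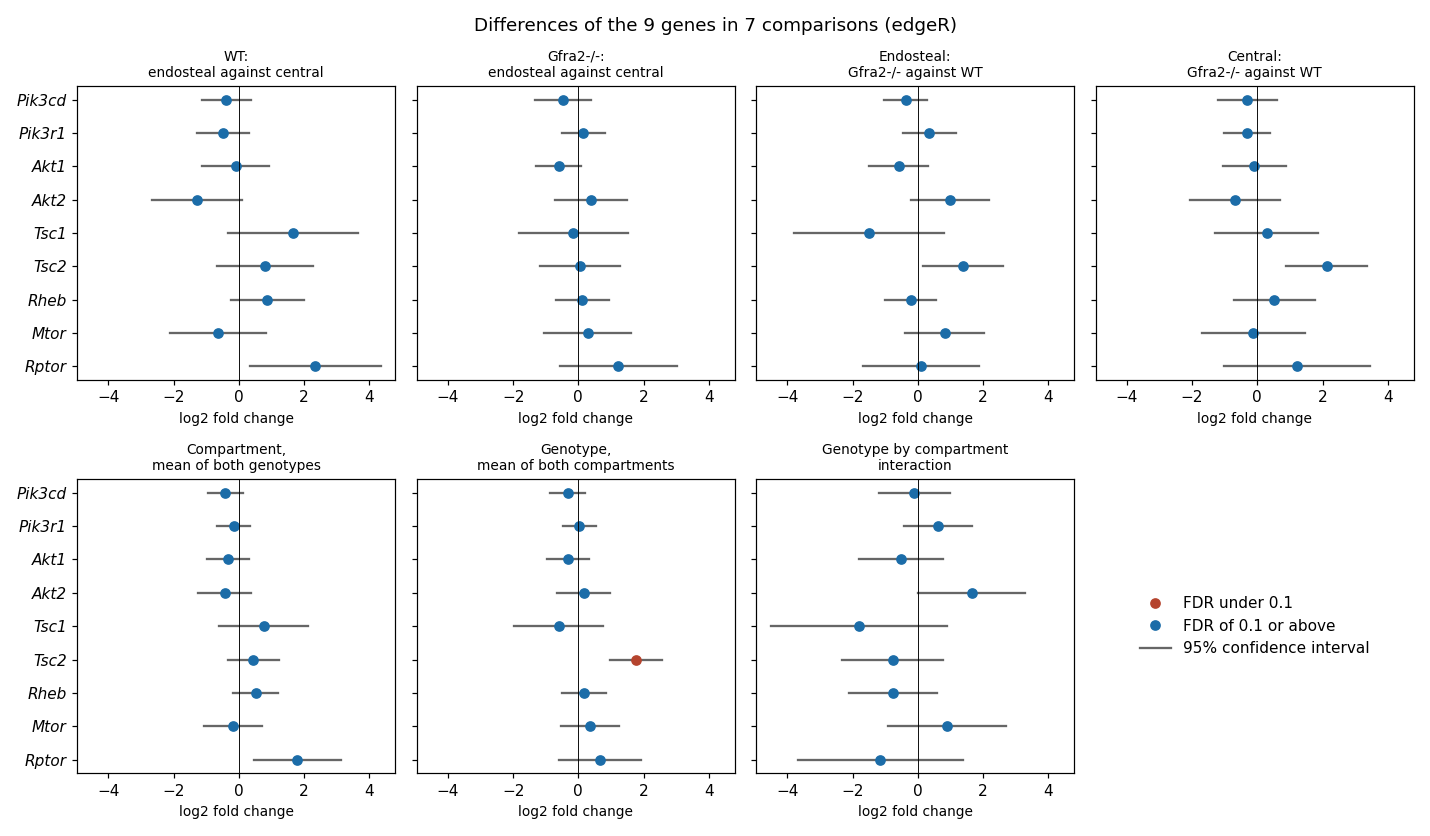
Log2 fold changes (points) with 95% confidence intervals (lines) of the 9 genes in the 4 comparisons of groups, the 2 averaged effects and the interaction; red marks an FDR under 0.1. Tsc2 in the averaged genotype comparison, at 1.77, is the red point, and the intervals of Tsc1 and Rptor are the widest in most panels.

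Counted over the 9 genes, 4 were higher and 5 lower in endosteal than in central WT HSCs. The median of their log2 fold changes was -0.10, against 0.03 over all 11181 genes tested. In libraries labelled Gfra2-/- 6 were higher and 3 lower (median 0.13, all genes 0.03). None of the 9 passed in either comparison, where edgeR called 0% of all genes; at an unadjusted p under 0.05 there were 882 genes in WT and 664 in Gfra2-/- libraries, and DESeq2 called 208 and 156. No member was free of overlap between the Gfra2-/- compartments, against 7.29% of all genes.

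Between genotypes, 5 were higher and 4 lower in endosteal libraries labelled Gfra2-/- (median 0.10, all genes 0.03), and 4 were higher and 5 lower in central ones (median -0.09, all genes 0.03). None passed in endosteal HSCs (0% of all genes by edgeR, with 868 genes at an unadjusted p under 0.05 and 136 called by DESeq2) and none had groups without overlap, against 6.24% of all genes. None passed in central HSCs either (0.051% of all genes). The interaction called 0 of the 9 and 0% of all genes by edgeR, with 1074 at an unadjusted p under 0.05. These comparisons share libraries and are not independent of each other.

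Reads per exonic length allow the 9 genes to be ranked by level. In CPM per kb of exon, the means over 15 libraries were 39.8 ± 16.8 (SD) for Akt1, 35.6 ± 12.8 for Pik3cd, 24.6 ± 7.03 for Pik3r1, 15.1 ± 6.09 for Rheb, 7.97 ± 6.22 for Tsc2, 7.66 ± 3.92 for Akt2, 5.55 ± 8.60 for Tsc1, 4.66 ± 2.26 for Mtor and 3.26 ± 2.94 for Rptor. Neighbours in this order differed by more than their SD between Pik3r1 and Rheb and between Rheb and Tsc2, and the other neighbours lay within it. Without WT endosteal library A, whose Tsc1 stood apart and which was left out after the data were seen, the mean of Tsc1 over 14 libraries was 3.38 ± 1.78, below Mtor (4.79) and Rptor (3.47). The means also pool groups whose own means lay apart. Tsc2 had 2.79 CPM per kb in WT central and 12.4 in Gfra2-/- central libraries, a difference that did not pass on its own (edgeR FDR = 0.318). Akt1 was above 90.7% of all tested genes on this scale and Rptor above 33.3%.

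**Figure D4:**
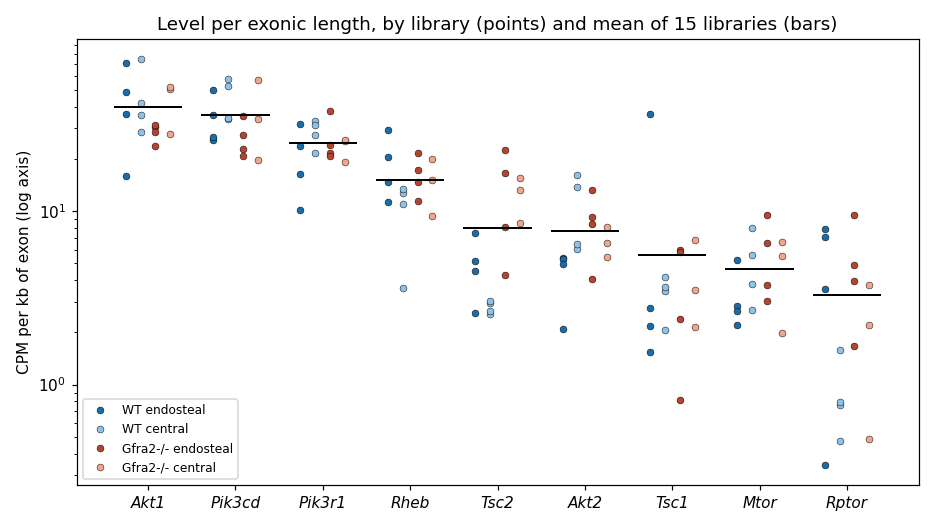
Level of each of the 9 genes in CPM per kb of exon (log axis), by library (points, coloured by group) and as the mean of 15 libraries (bars). The means fall from 39.8 for Akt1 to 3.26 for Rptor, and most neighbours overlap.

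Around the 9 genes, a list of 98 further pathway genes was examined by role. In the averaged genotype comparison 92 of them passed the filter, 50 higher and 42 lower (median 0.15, all genes 0.10), and 0 passed an edgeR FDR of 0.1, with 14 (15.2%) at an unadjusted p under 0.05, against 14.5% of all genes, and 7 called by DESeq2, which called 8.25% of all genes. By role, 7 of 10 receptors and adaptors, 5 of 9 other PI3K subunits, 4 of 7 lipid and AKT phosphatases, 5 of 8 kinases and substrates around AKT, 3 of 8 other TSC, Rheb and stress inputs, 4 of 9 other mTOR complex subunits, 14 of 25 genes of the amino acid arm and 8 of 16 effectors were higher in libraries labelled Gfra2-/-. In the 4 comparisons of groups, 86 to 91 of the 98 were tested and edgeR called 0. Of the 86 tested between WT compartments, 3 were higher and 3 lower in endosteal HSCs without overlap, against 6.44% of all genes. Between Gfra2-/- compartments it was 3 higher and 5 lower of 91, against 7.29%. Between endosteal genotypes it was 1 and 1 of 91, against 6.24%, and between central genotypes 5 and 4 of 90, against 12.3%.

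**Figure D5:**
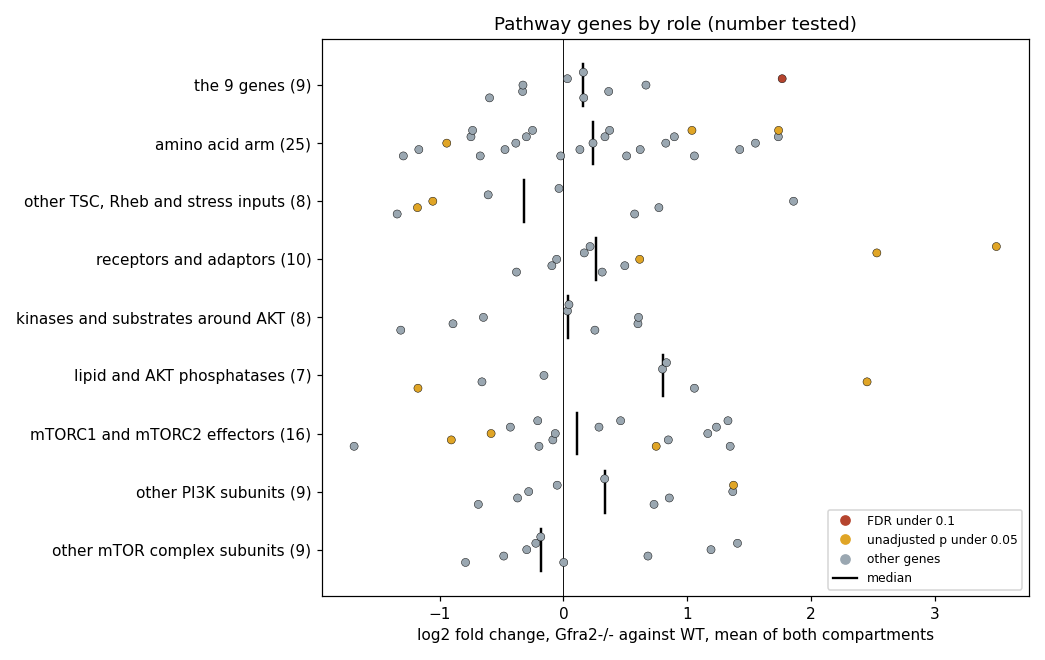
Log2 fold change between libraries labelled Gfra2-/- and WT, averaged over both compartments, for the 9 genes and for 92 further pathway genes by role. Bars are medians, and colours mark the FDR and the unadjusted p. Tsc2, at 1.77, is the only point under an FDR of 0.1.

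Upstream of the 9 genes, Pik3ap1, an adaptor that recruits PI3K, had 2.72, 0.622, 0 and 0 CPM in WT central and 18.2, 19.8 and 21.1 CPM in Gfra2-/- central libraries (edgeR FDR = 0.387). Pik3ca, the p110α subunit, had a log2 fold change of -0.05 between genotypes on average (SE 0.49, edgeR FDR = 0.983).

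Rhebl1, a relative of Rheb, was at 71.5, 60.9, 169 and 79.9 CPM in WT central libraries. It lay between 9.45 and 40.0 CPM in WT endosteal, 19.9 and 52.6 in Gfra2-/- endosteal and 4.26 and 26.7 in Gfra2-/- central libraries. WT central HSCs were thus above every other library. Its log2 fold change was -1.90 (SE 0.66, edgeR FDR = 0.508) between WT compartments and -2.53 (SE 0.80, edgeR FDR = 0.362) between genotypes in central HSCs. DESeq2 called both, with adjusted p of 0.0746 and 0.0210, and edgeR did not. Over all genes, DESeq2 called 208 of 10566 and 382 of 10627 tested in these comparisons. At equal depth after thinning, the log2 fold changes of Rhebl1 were -1.95 and -2.15. Scaling by spike-in reads gave 0.20 and -0.61, where the medians of all genes were 1.58 and 1.75, so that Rhebl1 lay at -1.38 and -2.36 relative to them.

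Among other genes of this list, Lamtor3, of the complex that holds mTOR complex 1 at lysosomes, was lower in all WT endosteal (28.4 to 56.5 CPM) than WT central libraries (70.6 to 228 CPM), with a log2 fold change of -1.61 (SE 0.58, edgeR FDR = 0.537) that was 0.63 with spike-in size factors, or -0.95 relative to the median of all genes (1.58). Prr5, a subunit of mTOR complex 2, was at 5.40 to 26.5 CPM in WT endosteal and 0 to 3.37 CPM in WT central libraries (2.999, SE 1.15, edgeR FDR = 0.578). Those WT central values lay near 0 CPM in the group with the fewest reads. Between the Gfra2-/- compartments the log2 fold change of Prr5 was -1.60 (SE 1.31, edgeR FDR = 0.9995). In libraries labelled Gfra2-/-, Foxo1, a transcription factor that AKT restrains, was at 12.3 to 62.8 CPM in endosteal and 84.0 to 109 CPM in central HSCs, without overlap (-1.44, SE 0.59, edgeR FDR = 0.9995). Pdpk1, the kinase that activates AKT, had -1.44 (SE 0.58) in this comparison and 0.25 (SE 0.44) between genotypes on average, and neither passed.

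In endosteal HSCs the smallest p of the list belonged to Rragb, a Rag GTPase of amino acid sensing (0 to 4.17 CPM in WT and 3.89 to 28.95 CPM in Gfra2-/- libraries), Lpin1, a lipid phosphatase that mTOR complex 1 controls (10.5 to 24.6 and 10.5 to 93.8 CPM), and Gsk3b, a kinase that AKT inhibits (45.2 to 124 and 118 to 467 CPM). Their log2 fold changes were 3.36 (SE 1.32), 1.75 (SE 0.70) and 1.23 (SE 0.50), each with an edgeR FDR of 0.738. Rictor, of mTOR complex 2, had -0.22 (SE 0.55) and Rps6kb1, the S6 kinase, 0.75 (SE 0.32) between genotypes on average, with edgeR FDRs of 0.903 and 0.294. The ranges of all 3 genes named first overlapped between the genotypes, and none of the 5 passed the test.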

How the data were processed

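RNA was taken from pools of 30 sorted cells, amplified by the Smart-seq2 protocol and sequenced without molecular identifiers, so counts of reads are not counts of molecules. The authors aligned the reads to GRCm38 (Ensembl release 81, per their methods) with GSNAP and counted reads on genes without regard to strand with HTSeq (version 0.5.3p3). The deposited values are raw counts for 46078 genes. Another 92 rows for spike-in RNA and 5 rows of totals stayed out of library sizes. Of 16 labelled samples, 15 libraries entered the work, and 1 column of values could be tied to no sample and stayed unused. The labelled sample without a library here is a central Gfra2-/- one, and the column was not given to it by elimination. Columns were assigned to groups through the sample sheets of the supplement.

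Symbols and positions came from GENCODE M21 (45229 genes matched), and promoter windows from RefSeq (all 9 genes matched). Counts were tested with edgeR 4.0.16 in R 4.3.3: filterByExpr, TMM, the quasi-likelihood test and Benjamini-Hochberg adjustment over all genes tested, with a threshold of 0.1 on the FDR. The 4 comparisons of groups were fitted on the libraries of those groups, and the averaged effects and the interaction on all 15. CPM are counts scaled by the TMM-normalized library size, and SDs on the log2 scale used a pseudocount of 1. The test was tried on simulated counts first.

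Alternatives were DESeq2 1.42.0, its size factors, spike-in size factors, other count filters, thinning, a spike-in term, libraries past the study's cut-offs (over 1500000 mapped reads, under 20% mitochondrial, over 8500 genes, here taken at 10 counts), and leaving out libraries. The 9 genes and the lists were chosen with earlier results of these data known. Besides the 9, genes were named by a rule: Rictor, Pdpk1, Pik3ca and Rps6kb1, and the 3 smallest p of the list in each comparison of groups. Some genes that the rule names are not reported here. Other marker lists were only measured: megakaryocyte genes summed to 69.4 to 620 CPM, T and NK genes to 1.34 to 126 CPM and stromal and endothelial genes to 49.4 to 320 CPM.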

Additional observations from a re-analysis of the deposited data

Results flagged for a closer look

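Within groups of 4 libraries, 2 values stood apart from the other 3 by more than the 95% critical value of Dixon's test, among 27 such groups tested (9 genes in 3 groups). Chance sets apart about 1 in 20 groups. Tsc1 in WT endosteal library A was at 426.2 CPM, while the other 3 libraries of the group lay between 18.3 and 32.7 CPM, a gap of 0.965 of the group's range. Akt2 in WT endosteal library D was at 14.9 CPM, while the other 3 lay between 35.4 and 38.02 CPM, a gap of 0.885 of the range. Library A had 4416648 reads on genes, the fewest of its group, and library D 0.192% of spike-in reads, the lowest share of all 15 libraries. The part of these features in the Tsc1 and Akt2 levels was not tested.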

How the results depend on the processing

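No paired analysis was possible because the table's column names hold no replicate number. The Tsc2 difference between genotypes kept its direction and lay between 1.56 and 2.12 under all alternatives, and its call was lost at an FDR of 0.05, with spike-in size factors, with the libraries past the quality cut-offs, without the endosteal libraries over 3 Gfra2 reads and with the 11 libraries richer in spike-in, where 0 of the 9 genes were called. With each library left out, 0 to 1 of the 9 genes and 0 to 2 of the other pathway genes were called in that comparison; the other alternatives called 1 of the latter with at least 10 counts in every library, 2 with spike-in size factors and 7 with DESeq2. DESeq2 also called 1 of the 9 genes between central genotypes (Tsc2, adjusted p = 0.0150) and 1 between averaged compartments (Rptor, 0.0978), and 1 of the other genes each between WT compartments, Gfra2-/- compartments and central genotypes and in the interaction. Over all genes, the number called reached 208, 156, 136, 382, 468 and 1140 with DESeq2 in the 4 comparisons of groups, the averaged compartments and the averaged genotypes, where it fell to 6 at its lowest, and 193 in the interaction with spike-in size factors. The cause of these changes was not tested.

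Some log2 fold changes that had not passed the test changed sign under an alternative, and none of them passed there either. Scaling by spike-in reads moved the all-gene median to 1.58, -0.46, -0.28, 1.75, 0.60, 0.80 and -2.18 in the WT and Gfra2-/- compartments, the endosteal and central genotypes, the averaged compartments, the averaged genotypes and the interaction. Relative to these medians, 27 of the 34 values that changed sign with spike-in size factors had the sign they had with TMM. Subtracting the median takes out a shift common to all genes, so this agreement was largely built in and does not test spike-in scaling. The same holds for single genes given relative to such a median. With DESeq2's test, the changed values were Pik3r1 -0.016 between the averaged genotypes, Pik3cd 0.071 in the interaction. With spike-in size factors, the changed values were Pik3cd 1.36, Pik3r1 0.75, Akt1 0.61, Akt2 0.21, Mtor 1.07, Lamtor3 0.63, Pdpk1 1.40, Pik3ca 1.41, Rhebl1 0.20, Rictor 1.61 and Rps6kb1 1.12 between the WT compartments, Pik3r1 -0.48, Akt2 -0.42, Tsc2 -0.93, Rheb -0.56 and Rps6kb1 -0.22 between the Gfra2-/- compartments, Rptor -0.22 and Pik3ca -0.85 between the endosteal genotypes. Others there were Pik3cd 1.32, Pik3r1 1.27, Akt1 1.13, Akt2 1.40, Mtor 1.43 and Pik3ca 1.01 between the central genotypes, Pik3cd 0.30, Pik3r1 0.13, Tsc1 -0.17 and Mtor 0.87 between the averaged compartments, Pik3cd 0.26, Akt1 0.22 and Tsc1 0.78 between the averaged genotypes. Others there were Pik3r1 -1.24, Akt2 -0.63 and Mtor -0.40 in the interaction. Among the 13 libraries past the quality cut-offs, the changed values were Pik3cd 0.0023 and Rps6kb1 0.17 between the WT compartments, Pik3cd 0.057, Akt2 0.057 and Mtor 0.49 between the central genotypes, Mtor 0.13 between the averaged compartments. Others there were Pik3r1 -0.051 between the averaged genotypes. Among the 11 libraries with more spike-in reads, the changed values were Akt1 0.28 between the WT compartments, Tsc1 0.76, Mtor -0.44 and Rps6kb1 -0.029 between the Gfra2-/- compartments, Rptor -0.062, Pdpk1 0.46 and Rictor 0.093 between the endosteal genotypes. Others there were Akt1 0.092, Tsc1 -0.24, Mtor 0.12 and Rictor -0.24 between the central genotypes, Pik3r1 0.033 between the averaged compartments. Without a filter, the changed values were Rps6kb1 0.0072 between the WT compartments, Pik3ca 0.013 between the Gfra2-/- compartments. Without the endosteal libraries over 3 Gfra2 reads, the changed values were Tsc1 0.50, Tsc2 -0.25, Pik3ca 0.29 and Rps6kb1 -0.18 between the Gfra2-/- compartments, Rptor -0.096 between the endosteal genotypes, Pik3cd 0.093 in the interaction. With thinned counts, the changed values were Pik3ca 0.021 between the Gfra2-/- compartments, Pik3r1 -0.10 between the averaged genotypes. With at least 10 counts in every library, the changed values were Akt1 0.065 and Mtor 0.086 between the central genotypes. With DESeq2 size factors within edgeR, the changed values were Pik3r1 -0.016 between the averaged genotypes, Pik3cd 0.073 in the interaction.

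With each library left out in turn, the log2 fold changes that changed sign had these lowest and highest values. For the WT compartments, the ranges were -0.48 to 0.23 for Akt1, -0.69 to 2.02 for Tsc1, -0.78 to 0.016 for Pdpk1 and -0.35 to 0.15 for Rps6kb1. For the Gfra2-/- compartments, the ranges were -0.083 to 0.24 for Pik3r1, -0.47 to 0.42 for Tsc1, -0.37 to 0.34 for Tsc2, -0.12 to 0.41 for Rheb, -0.093 to 0.60 for Mtor, -0.58 to 0.77 for Pik3ca and -0.13 to 0.18 for Rps6kb1. For the endosteal genotypes, the ranges were -1.85 to 0.78 for Tsc1, -0.41 to 0.066 for Rheb, -0.44 to 0.46 for Rptor, -0.64 to 0.18 for Pdpk1 and -0.32 to 0.65 for Pik3ca. For the central genotypes, the ranges were -0.27 to 0.26 for Akt1, -0.29 to 0.60 for Tsc1, -0.44 to 0.23 for Mtor and -0.046 to 0.47 for Rictor. For the averaged compartments, the ranges were -0.39 to 1.07 for Tsc1 and -0.36 to 0.032 for Mtor. For the averaged genotypes, the ranges were -0.087 to 0.18 for Pik3r1 and -0.85 to 0.55 for Tsc1. For the interaction, the ranges were -0.44 to 0.31 for Pik3cd and -2.17 to 0.49 for Tsc1.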

Other observations

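Some other inhibitors of the pathway, chosen after their values were seen, had the following values and did not pass the edgeR threshold between genotypes. Stk11, which encodes the kinase LKB1 upstream of AMPK, was at 42.5 to 201.3 CPM in WT endosteal, 86.0 to 405 in WT central, 46.3 to 76.0 in Gfra2-/- endosteal and 60.7 to 94.2 in Gfra2-/- central libraries (log2 fold change between genotypes -1.18, SE 0.40, edgeR FDR = 0.185). Inpp5d, which encodes the 5-phosphatase SHIP1 of blood cells, was at 95.4 to 377, 97.9 to 468, 60.7 to 142 and 72.7 to 128 CPM in the same order (-1.18, SE 0.39, edgeR FDR = 0.173). Inpp4b, which encodes a lipid phosphatase of the pathway, was at 0.975 to 18.5, 2.68 to 9.05, 4.38 to 40.7 and 3.21 to 78.9 CPM (2.45, SE 0.85, edgeR FDR = 0.193). The groups overlapped for all 3 genes.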
